A study of Arabidopsis thaliana with 15 samples.

Results

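The deposited table lists 33323 genes of Arabidopsis thaliana, and its description column calls 3900 of them transposable element genes. The members described here are the 270 of these, 6.92%, chosen by their counts, which add up to at least 100 over 14 RNA-seq libraries. Library 3 of ref6C enters neither that sum nor any mean. The members were thus selected on a measured value, and that they are expressed is a description and not a finding. Of the other transposable element genes, 1659 had no count in the 14 libraries and 1971 had between 1 and 99, and the members held 98.3% of all counts in the class. Just outside the limit lie AT1G67626 with 96 counts, AT1G21220 with 98 and AT3G43654 with 99. Just inside it lie AT2G16140 with 102, AT4G09875 with 103 and AT5G34834 with 104.

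The RNA came from un-open flower buds of untreated 5-week-old Col0 plants of 5 genotypes. These were the single mutants ref6-3 and ref6C of REF6, the double mutant elf6-3ref6C, the triple mutant elf6-3ref6Cjmj13G, and WT, with 3 libraries each, of which 2 are used for ref6C. The double mutant carries ref6C, and the triple mutant carries both alleles of the double and jmj13G; both are called the combined mutants. The labels do not state the lesion of any allele, whether a mutant stands for 1 line, or whether the libraries of a genotype were made from different plants; a p-value here measures only how these libraries spread.

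A transposable element gene is the stretch of a mobile DNA element annotated as coding, or as having once coded, for the proteins the element moves with. Retrotransposons spread by copying their RNA back into DNA, and DNA transposons are cut out and reinserted by a transposase. In plants, DNA methylation, histone H3 lysine 9 methylation and small RNAs keep most such copies silent. REF6, ELF6 and JMJ13 are demethylases that take methyl groups off histone H3 lysine 27, the mark of Polycomb silencing, which in Arabidopsis lies mainly over protein-coding genes. REF6 reaches its targets through zinc fingers that read a short DNA motif.

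The libraries held between 26009591 and 34140165 counts. Levels are given in CPM, the counts of a gene scaled to the size of its library. The mean level of REF6 was between 32.9 and 36.9 CPM in the 4 mutants, against 69.4 in WT. ELF6 averaged 2.53 CPM in elf6-3ref6C and 8.67 in elf6-3ref6Cjmj13G, against 61.3 in WT, and JMJ13 averaged 9.04 in elf6-3ref6Cjmj13G against 24.8 in WT. The flower organ markers AP1, AP3, PI, AG and SEP3 had group means between 75.4 and 276 CPM, while of the 3 root markers RHD6 and PHT1;1 were at or near 0 and SCR, which also acts in shoots, averaged between 47.8 and 58.9 CPM. Library 3 of ref6C stood apart within this class: 3164 transposable element genes had a count there, against 624 to 1041 in the other libraries, and genes of the class that are not members held 16721 counts, against 848 to 1702. In that library the members themselves held the usual share of counts, since the range over all 15 libraries was 0.230% to 0.254%. A note in the deposited table says that the authors also kept this library out of their statistics.

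**Figure D1:**
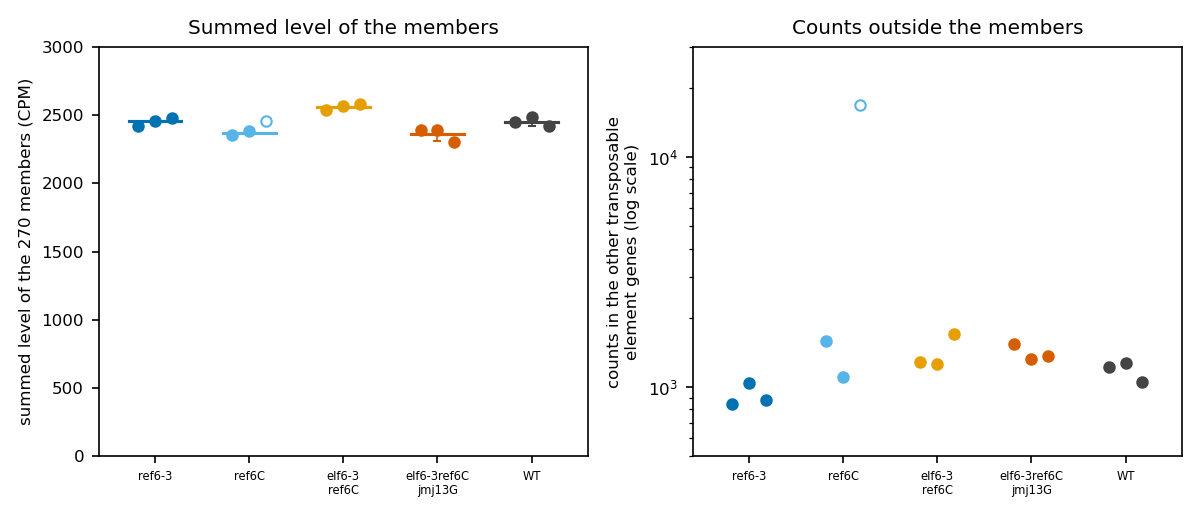
Left, summed level of the 270 members in CPM (vertical axis, from 0) in each library by genotype, with the mean and SD. Right, counts in transposable element genes that are not members (log axis). The hollow point is ref6C library 3, which is left out of the mean. On the left the genotype means lie between 2364 and 2562 CPM, and on the right the hollow point, at 16721 counts, is above every other library.

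Together the members made up a steady part of the transcriptome in every genotype, as the plot of summed levels shows. The summed member level was 2424, 2457 and 2482 CPM in ref6-3, 2357 and 2383 CPM in ref6C, 2535, 2566 and 2585 CPM in the double mutant, 2392, 2393 and 2306 CPM in the triple mutant, and 2454, 2484 and 2418 CPM in WT. The double mutant libraries lay above all WT libraries, those of ref6C and the triple mutant below them, and those of ref6-3 overlapped with WT. Without AT2G06950, whose levels are given below, the sums of the double mutant and of WT would overlap. These sums have no test, because the members were chosen with results of these data known. In whole buds, fewer cells of a type and less RNA per cell cannot be told apart.

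A few loci carried much of that sum. AT2G11240 and AT2G06950 together held 24.7% of all member counts, and the top 8 held 46.7%. By contrast 114 members averaged under 1 CPM and 46 reached 10 CPM. The median member level was 1.73 CPM, against 19.0 CPM over all 22233 genes tested, and per length it was 0.700 FPKM, against 13 FPKM. Per length the highest member was SADHU1-1 (AT2G10410), a Sadhu retroposon, at 135 FPKM in ref6-3, 123 in ref6C, 129 in the double mutant, 113 in the triple mutant and 114 in WT.

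The member with the most counts, AT2G11240, had 321, 350 and 339 CPM in ref6-3, 321 and 343 in ref6C, 314, 324 and 323 in the double mutant, 302, 306 and 272 in the triple mutant, and 356, 349 and 352 in WT. The triple mutant libraries were all below WT, by a log2 fold change of -0.27 (edgeR adjusted p = 3.4e-07). Reads of AT2G11240 can be shared with AT2G11215 and AT2G11225, which overlap it on the opposite strand. AT2G06950 had 271, 273 and 275 CPM in ref6-3, 236 and 227 in ref6C, 349, 357 and 351 in the double mutant, 273, 280 and 279 in the triple mutant, and 244, 253 and 240 in WT. Its double mutant libraries were the highest of all, without overlap, and its log2 fold change over WT was 0.52 ± 0.03 (SE; edgeR adjusted p = 7.6e-16).

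The position of the members is a property that the rule did not use, and it is given here beside that of the whole class, with no test. All 270 loci were found by locus tag in the RefSeq annotation of TAIR10.1, where 268 are pseudogenes. Of these loci 75, or 27.8%, had transposable element genes as at least 50% of their 50 nearest loci, against 63.6% of all transposable element genes and 1.29% of the other genes tested. The median length was 2868.5 bases, against 2057 for the whole class, and 237 members, 87.8%, had a single exon, against 85.5%. Median GC content was 41.3%, against 41.4%. On chromosomes 1 to 5 lay 45, 44, 71, 38 and 72 members, out of 683, 824, 878, 711 and 804 loci of the class. A near-identical copy, at least 95% identical over at least 50% of the length, existed elsewhere in the genome for 66 members, and reads of such copies could be split between them in ways the sources used here do not give. Another gene overlapped 45 members, 30 of them on the opposite strand, and whether counting used strand is not given either.

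**Figure D2:**
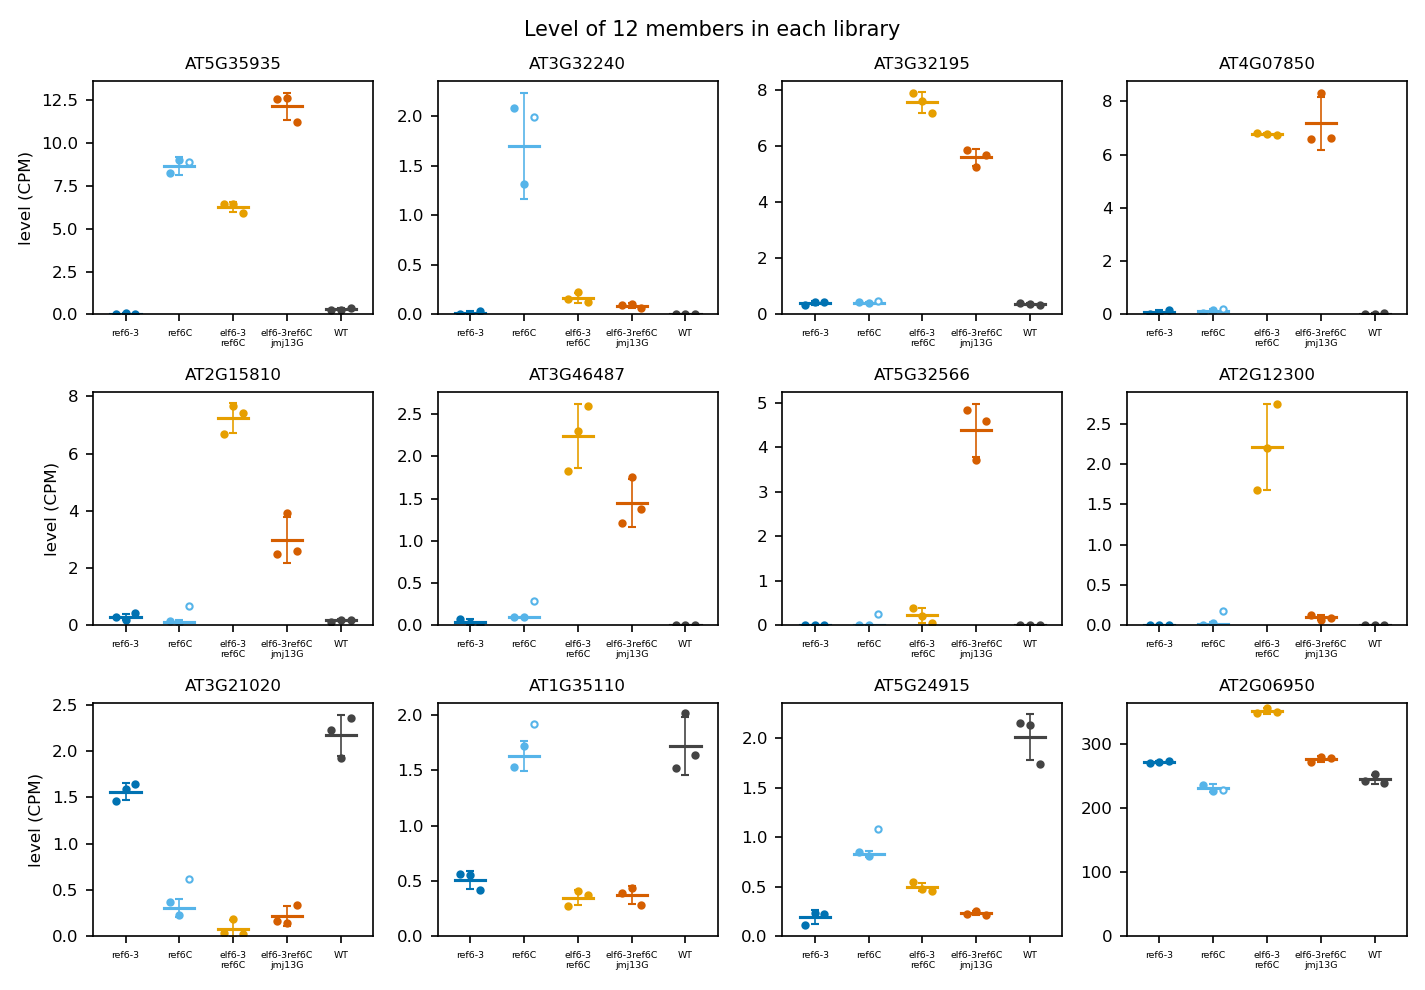
Level in CPM (vertical axes, each with its own scale) of 12 members in every library, by genotype. Points are libraries, lines the mean and bars the SD; the hollow point is ref6C library 3, left out of the mean. AT5G35935 is high in all mutants with ref6C, AT3G32240 in ref6C, and AT2G12300 and AT5G32566 each in 1 of the combined mutants.

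Single loci moved far more than the sum. One of these was AT5G35935, a long pseudogene on the minus strand of chromosome 5 (chr5:14083388-14089891, TAIR10.1) without a near-identical copy. It had 0.0374, 0.0689 and 0.0382 CPM in ref6-3, 8.24 and 8.99 CPM in ref6C, 6.44, 6.43 and 5.93 CPM in the double mutant, 12.5, 12.6 and 11.2 CPM in the triple mutant, and 0.270, 0.263 and 0.363 CPM in WT. Every library with the ref6C allele was above every WT library, and every ref6-3 library was below every WT library. Library 3 of ref6C, left out of the fit, had 8.88 CPM.

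Against WT, the log2 fold change of AT5G35935 was -2.50 ± 0.51 in ref6-3 (SE; edgeR adjusted p = 3.2e-04). It was 4.85 ± 0.16 in ref6C, 4.38 ± 0.16 in the double mutant and 5.33 ± 0.14 in the triple mutant. Between the single mutants, ref6C stood 7.34 ± 0.23 above ref6-3 on the log2 scale. Without all the mutants that carry ref6C, the locus would miss the limit on counts. Its rises in them over WT and over ref6-3 are therefore a description and have no test. The level also differed among the mutants with ref6C: it fell in the double mutant against ref6C by 0.46 on the log2 scale (edgeR adjusted p = 1.1e-04) and rose in the triple mutant against the double mutant by 0.95 ± 0.08 (edgeR adjusted p = 4.3e-10). The nearest tested gene that is no transposable element gene, AT5G35930, lies 8370 bases away and was called in none of the 4 mutants, with log2 fold changes between -0.10 and -0.02. In the authors' deposited table the locus has log2 values, WT over mutant, of 0.39 for ref6-3 (adjusted p = 0.20), -3.60 for ref6C, -3.20 for the double mutant and -4.13 for the triple mutant. The fall in ref6-3 thus does not pass 0.05 there. It rests on few counts, as 3 counts over the ref6-3 group amount to 0.0366 CPM.

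The REF6 motif was searched as CTCTGCTC, CTCTGCTT, CTCTGTTC and CTCTGTTT, on both strands, from 250 bases before to 50 bases after each annotated start. These 4 strings cannot start at the same base, and annotated starts of pseudogenes are not mapped transcription starts. A match was found in 32 members, 11.9%, against 6.62% of all transposable element genes and 7.80% of the other genes tested. The windows below, from RefSeq TAIR10.1 and printed 5′ to 3′ on the gene's strand, belong to members whose levels are given here, with any match in capitals. The AT5G35935 window, chr5:14089842-14090141 on the minus strand, holds none of the 4 strings. That of AT3G32195, chr3:13165321-13165620 on the plus strand, holds CTCTGTTT from base -167. That of AT1G50810, chr1:18828618-18828917 on the plus strand, holds CTCTGTTT from base -91 and CTCTGTTC from base -72. That of SADHU5-1 (AT4G01525), chr4:660560-660859 on the plus strand, holds CTCTGTTT from base -183, and that of AT1G21260, chr1:7442930-7443229 on the minus strand, holds AAGCAGAG, which is CTCTGCTT on the other strand, from base 7.
AT5G35935: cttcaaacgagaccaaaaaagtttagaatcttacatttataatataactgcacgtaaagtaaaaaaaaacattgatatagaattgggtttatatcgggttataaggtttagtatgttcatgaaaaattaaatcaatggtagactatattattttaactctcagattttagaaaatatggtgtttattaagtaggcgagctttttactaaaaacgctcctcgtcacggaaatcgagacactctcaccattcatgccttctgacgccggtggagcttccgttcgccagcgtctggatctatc
AT3G32195: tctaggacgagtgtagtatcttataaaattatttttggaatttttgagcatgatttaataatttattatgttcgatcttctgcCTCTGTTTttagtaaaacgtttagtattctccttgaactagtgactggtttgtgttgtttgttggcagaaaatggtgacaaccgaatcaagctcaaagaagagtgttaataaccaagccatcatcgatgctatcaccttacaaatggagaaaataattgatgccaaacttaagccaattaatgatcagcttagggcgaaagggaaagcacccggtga
AT1G50810: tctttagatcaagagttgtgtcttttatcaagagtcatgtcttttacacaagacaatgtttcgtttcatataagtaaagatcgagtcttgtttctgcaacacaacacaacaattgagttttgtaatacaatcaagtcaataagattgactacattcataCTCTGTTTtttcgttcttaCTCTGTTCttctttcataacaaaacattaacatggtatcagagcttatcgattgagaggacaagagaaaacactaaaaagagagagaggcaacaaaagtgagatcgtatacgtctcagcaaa
SADHU5-1: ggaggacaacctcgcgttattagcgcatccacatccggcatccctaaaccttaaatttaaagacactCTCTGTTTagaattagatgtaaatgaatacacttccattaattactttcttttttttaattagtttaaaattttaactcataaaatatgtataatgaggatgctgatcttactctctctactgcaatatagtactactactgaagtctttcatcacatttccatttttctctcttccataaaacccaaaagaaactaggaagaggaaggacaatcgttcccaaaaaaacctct
AT1G21260: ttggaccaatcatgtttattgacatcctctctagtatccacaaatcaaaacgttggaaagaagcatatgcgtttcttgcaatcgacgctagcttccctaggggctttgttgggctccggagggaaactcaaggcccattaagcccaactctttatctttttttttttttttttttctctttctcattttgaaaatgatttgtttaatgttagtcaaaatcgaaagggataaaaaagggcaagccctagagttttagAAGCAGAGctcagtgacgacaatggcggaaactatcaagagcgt

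Of the 32 members with a match, 6 were higher and 7 lower in ref6-3 than in WT (18.8% and 21.9%, against 16.1% and 18.3% of all genes tested), and 2 and 9 in ref6C (6.25% and 28.1%, against 15.7% and 18.4%). In the double mutant they numbered 13 and 14 (40.6% and 43.8%, against 33.7% and 34.7%), and in the triple mutant 9 and 14 (28.1% and 43.8%, against 32.0% and 34.3%). Of the 238 members without a match, 8.40% were higher and 16.0% lower in ref6-3, and 11.8% and 16.0% in ref6C. In the double mutant 29.4% of them were higher and 33.2% lower, and in the triple mutant 26.1% and 33.6%. These differences in share were not tested. A match in this window is a description of letters only.

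In ref6-3, the most frequent call among the members was lower expression. Against WT, 26 members were higher and 45 lower (edgeR quasi-likelihood test, Benjamini-Hochberg adjusted p below 0.05 over all genes), and 199 were not called. That is 9.63% and 16.7% of the members, against 16.1% and 18.3% of all genes tested. At a change of at least 2-fold, 5 members (1.85%) were higher and 25 (9.26%) lower, against 0.625% and 4.69% of all genes. The median log2 fold change was -0.02 over the members, or -0.03 with members of few counts set at their bound, against 0.00 over all genes. For every comparison it holds that 41 members would miss the limit without 1 of the genotypes, and 58 without both combined mutants, so part of each count follows from the choice of members. At any size, the share of members called was below that of all genes in each direction in both single mutants, and within a few percentage points of it or below in the combined ones. Members had lower levels than all genes tested, with medians of 1.73 and 19.0 CPM. The shares of all genes, at any size or at 2-fold, were not matched for level.

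AT5G24915 and AT3G43080 had their lowest mean in ref6-3, and were higher in ref6C than in the other mutants. AT5G24915 had 0.112, 0.241 and 0.229 CPM in ref6-3, 0.852 and 0.811 in ref6C, 0.546, 0.483 and 0.463 in the double mutant, 0.229, 0.257 and 0.219 in the triple mutant, and 2.16, 2.13 and 1.74 in WT. All mutant libraries were below WT, with log2 fold changes of -3.34 ± 0.26 in ref6-3 (SE; edgeR adjusted p = 2.2e-11), -1.28 ± 0.21 in ref6C (2.0e-05), -2.02 ± 0.21 in the double mutant (1.6e-09) and -3.09 ± 0.24 in the triple mutant (6.8e-12). AT3G43080 had 0.786, 0.793 and 1.30 CPM in ref6-3, 3.64 and 2.36 in ref6C, 1.13, 1.15 and 1.11 in the double mutant, 1.67, 1.69 and 1.28 in the triple mutant, and 4.01, 4.24 and 3.89 in WT. Its ref6-3 libraries were far below WT, at -2.08 ± 0.18 (SE; edgeR adjusted p = 2.8e-10), and its call in ref6C, at -0.43 ± 0.16 (3.6e-02), was lost without WT library 1, WT library 2 or ref6C library 2, with all 15 libraries and with DESeq2.

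AT4G02960, a copia-type retrotransposon named ATRE2, went up in ref6-3. It had 3.18, 3.65 and 3.74 CPM in ref6-3, 1.98 and 2.20 in ref6C, 1.68, 2.16 and 2.31 in the double mutant, 3.21, 3.08 and 2.53 in the triple mutant, and 1.48, 1.64 and 1.53 in WT. Every library of every mutant was above every WT library. The log2 fold change was 1.18 ± 0.14 in ref6-3 (SE, edgeR adjusted p = 1.7e-07) and 0.91 ± 0.15 in the triple mutant (4.0e-06). In ref6C the value was 0.42 ± 0.17 (edgeR adjusted p = 6.2e-02).

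In ref6C, 30 members were higher than in WT and 47 lower, and 193 were not called. These are 11.1% and 17.4% of the members, against 15.7% and 18.4% of all genes tested. At 2-fold or more, 12 (4.44%) were higher and 16 (5.93%) lower, against 0.846% and 3.39% of all genes. The median log2 fold change was -0.01, or -0.02 with bounds, against 0.00 over all genes. The count of higher members was 18 without ref6C library 1 and 19 without library 2, where the 1 library left is assumed to vary like the other genotypes. With the third ref6C library in the fit it was 51, of which 22 changed at least 2-fold.

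Beside AT5G35935, the member that stood out in ref6C was AT3G32240 (chr3:13209736-13212216, plus strand). It had 0, 0 and 0.0382 CPM in ref6-3, 2.08 and 1.32 CPM in ref6C, 0.156, 0.223 and 0.123 CPM in the double mutant, 0.0982, 0.110 and 0.0624 CPM in the triple mutant, and no count in WT. The ref6C libraries were above all others, and library 3 had 1.99 CPM. Set against a floor of 3 counts over the WT group, the level was at least 51.7-fold higher in ref6C, at least 5.02-fold higher in the double mutant and at least 2.71-fold higher in the triple mutant. The locus is a member only through its 100 counts in ref6C, so these values are a description and have no test.

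AT2G15940 would miss the limit without ref6C, and also without the triple mutant. It had 0.681 and 0.743 CPM in ref6C against 0.101, 0.175 and 0.109 CPM in WT. AT1G21260, next to the wall-associated kinase gene WAK1, was lower in every mutant: it had 2.99, 2.52 and 2.52 CPM in ref6-3, 1.87 and 2.26 in ref6C, 3.20, 2.53 and 3.30 in the double mutant, and 2.78, 3.01 and 3.31 in the triple mutant, against 7.69, 7.07 and 7.41 in WT. No mutant library reached a WT library. The log2 fold changes were -1.46 ± 0.11, -1.83 ± 0.13, -1.29 ± 0.11 and -1.28 ± 0.11 (SE; largest edgeR adjusted p = 2.6e-11), while WAK1, which lies 105 bases away, had -0.54, -0.89, 0.82 and 0.39.

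AT1G50810 was nearly lost in all mutants. It had 0, 0.0345 and 0 CPM in ref6-3, 0.136 and 0.0338 in ref6C, 0, 0.0743 and 0.0617 in the double mutant, and 0.0654, 0 and 0.0312 in the triple mutant, against 1.15, 1.23 and 0.981 in WT. The ratio of the pooled levels was 92.3 in favour of WT for ref6-3 (95% counting interval 16.2 to 3683) and 33.8 for the triple mutant (11.2 to 166). The locus is a member only through its 103 counts in WT, so its low values in the mutants are a description and have no test. It has a near-identical copy and overlaps AT1G50820 on the opposite strand, whose log2 fold changes were 0.08, 0.10, -0.75 and -0.35.

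AT3G29642 was near 0 in WT and present in all mutants, with ratios to WT of 23.4 in ref6-3 (95% counting interval 6.09 to 200), 15.5 in ref6C (3.77 to 137), 30.7 in the double mutant (8.11 to 259) and 25.9 in the triple mutant (6.82 to 220). This locus would miss the limit without both combined mutants, so its ratios in them are a description only. It overlaps AT3G29644 on the opposite strand, which was itself higher, by 1.95, 1.81, 1.95 and 1.98 on the log2 scale, and without strand the reads of both cannot be told apart. AT5G28335 had log2 fold changes of 2.27 ± 0.56, 1.93 ± 0.64, 5.00 ± 0.36 and 4.55 ± 0.38 (SE; edgeR adjusted p = 2.2e-03 and 2.1e-02 in ref6-3 and ref6C). It would miss the limit without both combined mutants, so no p is given for those. Its ref6C call was lost without either ref6C library, without WT library 3 and with only the compared groups in the fit.

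**Figure D3:**
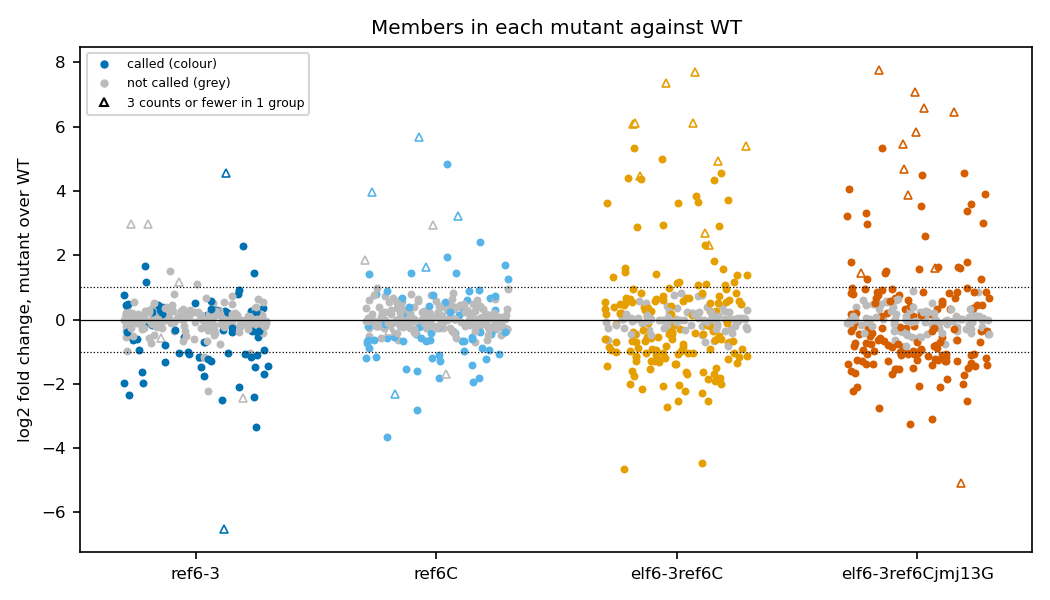
Log2 fold change over WT (vertical axis) of each member in the 4 mutants. Coloured points were called, grey ones were not; open triangles are members with 3 counts or fewer in 1 of the groups, drawn at the bound or the ratio of counts, and dotted lines mark 2-fold. Members with 3 counts or fewer in both groups are not drawn. Called members beyond 2-fold are 5 higher and 25 lower in ref6-3, 12 and 16 for ref6C, 39 and 46 for the double mutant, and 33 and 54 for the triple mutant.

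In the double mutant far more members were called in both directions than in the single mutants, as were far more of all genes tested. Against WT, 83 were higher (30.7%) and 93 lower (34.4%), and 94 were not called. Of all genes tested, 33.7% were called higher and 34.7% lower. At 2-fold or more, 39 members (14.4%) were higher and 46 (17.0%) lower, against 3.54% and 9.58% of all genes. The median log2 fold change was -0.01, against 0.00 over all genes.

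In the triple mutant, 71 members were higher than in WT (26.3%) and 94 lower (34.8%), against 32.0% and 34.3% of all genes tested, and 105 were not called. At 2-fold or more, 33 (12.2%) were higher and 54 (20.0%) lower, against 2.84% and 9.70% of all genes. The median log2 fold change was -0.07, against -0.01 over all genes. The strip plot of fold changes shows that both combined mutants spread the members more widely than either single mutant.

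Several members with large log2 fold changes over WT in both mutants with elf6-3 had low levels in WT and in the single mutants. Others, such as AT5G35935 and AT3G29642, were already higher than WT in ref6C. Without both mutants with elf6-3, AT4G07850, AT3G32195, AT2G15810, AT4G04170 and AT5G34834 would miss the limit of 100 counts, so their levels are a description and have no test. AT4G07850 (chr4:4671637-4675725, plus strand) had 6.79, 6.76 and 6.73 CPM in the double mutant and 6.58, 8.32 and 6.62 CPM in the triple mutant. It had 0, 0.0689 and 0.153 CPM in ref6-3, 0.0681 and 0.169 CPM in ref6C, and 0, 0.0292 and 0.0726 CPM in WT. The groups with elf6-3 did not overlap with the others. The ratio to WT was 206 in the double mutant (95% counting interval 70.1 to 1001) and 217 in the triple mutant (73.9 to 1055), and a near-identical copy of the locus can share its reads.

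AT3G32195 (chr3:13165571-13170335, plus strand), which has no near-identical copy, also had its highest libraries in these 2 mutants. It had 7.88, 7.62 and 7.16 CPM in the double mutant and 5.86, 5.24 and 5.68 CPM in the triple mutant, against 0.405, 0.380 and 0.327 CPM in WT. The single mutants were in the WT range or just above it, with 0.337, 0.448 and 0.458 CPM in ref6-3 and 0.443 and 0.405 CPM in ref6C. Its log2 fold change was 4.32 ± 0.15 in the double mutant and 3.90 ± 0.16 in the triple mutant (SE), and 0.16 and 0.19 in ref6-3 and ref6C, which were not called.

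AT2G15810 had 6.67, 7.65 and 7.41 CPM in the double mutant and 2.49, 3.92 and 2.59 CPM in the triple mutant, against 0.135, 0.205 and 0.182 CPM in WT. Its log2 fold changes were 5.34 ± 0.23 and 4.05 ± 0.27 (SE), and its single mutant libraries lay between 0.101 and 0.420 CPM. AT4G04170 had 2.34, 1.37 and 1.73 CPM in the double mutant and 1.01, 1.25 and 0.905 CPM in the triple mutant, against 1 count in the 3 WT libraries, for ratios of 165 (95% counting interval 29.1 to 6544) and 95.6 (16.7 to 3816). AT5G34834, with no count in ref6-3, WT or the 2 ref6C libraries used, was at least 21.9-fold higher in the double mutant than the WT floor and at least 14.6-fold higher in the triple mutant.

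Against ref6-3, ref6C showed more rises of 2-fold or more than falls, among the members as among all genes tested. At any size 80 members (29.6%) were called, as many higher as lower, and 29.6% of all genes tested were called either way. At 2-fold or more, 25 (9.26%) were higher and 8 (2.96%) lower, against 3.09% and 1.10% of all genes. Next to AT5G35935, AT3G32240 had a ratio of 139 between ref6C and ref6-3 (95% counting interval 24.4 to 5544, on 1 count in ref6-3). AT1G44875 had 0.988 and 1.05 CPM in ref6C, against 0.0748, 0.172 and 0.0763 CPM in ref6-3, a log2 fold change of 3.16 ± 0.45 (SE; edgeR adjusted p = 2.6e-06). AT2G04460 averaged 6.19 CPM in ref6C and 1.2 CPM in ref6-3, against 3.33 CPM in WT.

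Between the double mutant and ref6C, which differ by elf6-3, members went both ways. Against ref6C, 65 members were higher in the double mutant (24.1%) and 70 lower (25.9%), against 28.8% and 28.6% of all genes tested. At 2-fold or more, 35 (13%) were higher and 29 (10.7%) lower, against 3.27% and 5.27% of all genes. The ref6C group is shared with the comparison above, and the values of the leading members are those given per library.

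Between the triple mutant and the double mutant, which differ by jmj13G, few members were higher. Against the double mutant, 8 members were higher in the triple mutant (2.96%) and 42 lower (15.6%), against 8.47% and 11.4% of all genes tested. At 2-fold or more, 2 (0.741%) were higher and 10 (3.70%) lower, against 0.414% and 0.801% of all genes. These counts rest on single libraries: the higher members numbered 4 without triple mutant library 1, and the lower members 25 without triple mutant library 3, 27 without double mutant library 1 and 22 without double mutant library 3. The lower members at 2-fold or more numbered 4 without triple mutant library 3 and 6 without double mutant library 3.

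A pair of related members had nearly all of their counts in 1 combined mutant each. AT2G12300 is a member only through its 191 counts in the double mutant, and AT5G32566 only through its 396 counts in the triple mutant, so their values are a description and have no test. AT2G12300 had 0.131, 0.0733 and 0.0936 CPM in the triple mutant, against 1.68, 2.19 and 2.75 CPM in the double mutant, while WT and ref6-3 had no count. Its triple mutant libraries were all below those of the double. AT5G32566 had 4.84, 3.70 and 4.59 CPM in the triple mutant, against 0.390, 0.223 and 0.0617 CPM in the double mutant, and no count in ref6-3, WT or the 2 ref6C libraries used. Here every triple mutant library was above those of the double. Set against the WT floor, AT2G12300 was at least 68.5-fold higher in the double mutant and at least 3.05-fold higher in the triple mutant, and AT5G32566 at least 6.46-fold and at least 134-fold higher. Both were detected at 0.181 and 0.254 CPM in ref6C library 3.

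These 2 loci belong to a set of related sequences. With members linked where blastn matched at least 50% of either sequence (e-value limit 1e-20), 164 members fell into 46 groups of 2 to 14 and 106 stood alone, and 15 groups of at least 4 held 93 members. One group of 4 joined AT1G49090, AT2G12300, AT3G46487 and AT5G32566, on chromosomes 1, 2, 3 and 5. All of them were called higher than WT in both combined mutants, where 33.7% and 32.0% of all genes tested were, none was called in ref6-3, and 1, AT3G46487, was called in ref6C. All 4 would miss the limit without both combined mutants, and 3 of them without 1 genotype, so this count follows in part from the choice of members. AT3G46487 had 1.83, 2.30 and 2.59 CPM in the double mutant and 1.21, 1.76 and 1.37 CPM in the triple mutant, and no count in WT, which is at least 69.2-fold and at least 43.7-fold higher. AT1G49090 averaged 0.733 and 0.60 CPM in the double mutant and the triple mutant, against 0.0511 CPM in WT.

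How close these copies are bears on how reads can be told apart. The best match of AT3G46487 with AT5G32566 was 96.3% identical over 1266 bases, and that with AT1G49090 99.0% over 1187 bases. The stretches below, of 150 bases each from RefSeq TAIR10.1, are aligned parts of AT3G46487 (chr3:17112964-17113113, plus strand) and AT5G32566 (chr5:12205497-12205646, plus strand), with the 2 mismatches in capitals. AT3G46487 had its highest libraries in the double mutant, and AT5G32566 in the triple mutant.
AT3G46487: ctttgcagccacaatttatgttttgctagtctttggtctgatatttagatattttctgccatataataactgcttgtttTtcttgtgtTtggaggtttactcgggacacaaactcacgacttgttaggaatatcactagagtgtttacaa
AT5G32566: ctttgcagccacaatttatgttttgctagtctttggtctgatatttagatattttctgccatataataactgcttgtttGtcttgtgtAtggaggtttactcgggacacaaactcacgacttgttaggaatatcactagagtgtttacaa

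**Figure D4:**
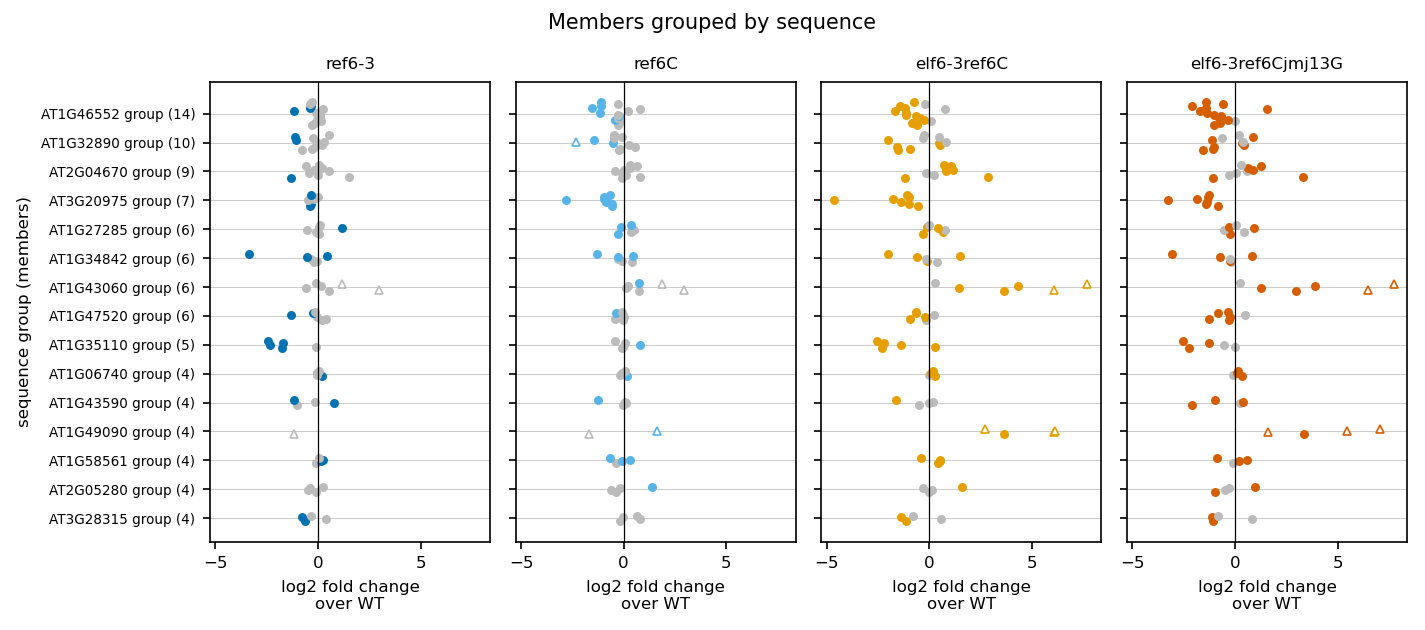
Log2 fold change over WT (horizontal axis) of the members of the 15 sequence groups with at least 4 members, 1 panel for each mutant, each group named by its first locus and its size. Points are members, coloured where called, with open triangles as in the strip plot. The groups of AT1G49090 and AT1G43060 lie to the right in the combined mutants, and those of AT3G20975 and AT1G46552 to the left.

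AT4G07850 and AT3G32195 share a group of 6, named here by AT1G43060, in which 5 members (83.3%) were called higher and none lower than WT in each combined mutant, against 33.7% and 32.0% higher of all genes tested. Of these 6 members, 4 would miss the limit without both combined mutants, so this count too follows in part from the choice of members. AT3G23725 matched AT4G07850 at 97.7% identity over 4049 aligned bases, and AT1G43060 matched AT4G08100 at 95.2% over 4213. Such members can share reads with one another, so the 5 calls may not stand for 5 separate loci. AT1G43060 averaged 1.26 CPM in the double mutant and 0.810 in the triple mutant, against 0.0963 in WT. AT3G23725 averaged 1.72 and 1.55 CPM, against 0.646 in WT. AT2G06890 had 0.897, 0.780 and 0.586 CPM in the double mutant and 1.01, 0.917 and 0.968 CPM in the triple mutant, against 1 count in WT, for ratios of 67.8 (95% counting interval 11.7 to 2719) and 88.5 (15.5 to 3534). The exception was AT4G08100, whose log2 fold changes of 0.27 and 0.24 were not called. In ref6-3 no member of the group was called, and in ref6C AT4G08100 alone was, as higher.

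The largest group, of 14 members named here by AT1G46552, went the other way. In ref6-3, 3 of its members (21.4%) were lower and none higher than in WT, against 18.3% lower of all genes tested, and in ref6C 6 were lower (42.9%, against 18.4%) and none higher. In the double mutant 11 were lower (78.6%, against 34.7%) and none higher, and in the triple mutant 12 were lower (85.7%, against 34.3%) and 1, AT5G25045, was higher. AT5G25045 would miss the limit without both combined mutants, so its rise is a description only. The median log2 fold changes of the group were -0.11, -0.29, -0.69 and -0.89 in ref6-3, ref6C, the double mutant and the triple mutant. Those of 7 anther and tapetum markers, whose levels are given with the array on chromosome 3, were -0.04, -0.62, -0.87 and -0.87 in the same order, and their part in the result was not tested. AT5G28635 averaged 2.93 CPM in ref6-3, 1.75 in ref6C, 1.36 in the double mutant and 0.851 in the triple mutant, against 3.72 in WT. AT3G29776 averaged 11.7, 9.26, 6.94 and 6.84 CPM in the same order, against 10.9 in WT. AT2G14220 was called in no mutant, with 7.14, 5.55, 6.70 and 6.45 CPM, against 6.35 in WT.

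A tandem array on chromosome 3 formed a group of 7: AT3G20975, AT3G20990, AT3G21010, AT3G21020, AT3G21030, AT3G21040 and AT3G21050, between bases 7350577 and 7376420 on the plus strand. All 7 were lower than WT in ref6C, in the double mutant and in the triple mutant, and 4 were lower in ref6-3 (57.1%). Of all genes tested 18.3% were lower in ref6-3, 18.4% in ref6C, 34.7% in the double mutant and 34.3% in the triple mutant. Their median log2 fold changes were -0.34 in ref6-3, -0.87 in ref6C, -1.07 in the double mutant and -1.37 in the triple mutant, while the medians over all 270 members lay between -0.07 and -0.01.

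Within the array, AT3G21010 had 9.28, 9.06 and 8.40 CPM in ref6-3, 6.95 and 5.57 in ref6C, 4.18, 4.5 and 4.48 in the double mutant, and 4.55, 4.58 and 4.21 in the triple mutant, against 11.6, 11.2 and 11.6 in WT. AT3G21020 fell furthest, with 1.46, 1.59 and 1.64 CPM in ref6-3, 0.375 and 0.236 in ref6C, 0.0390, 0.186 and 0.0309 in the double mutant, and 0.164, 0.147 and 0.343 in the triple mutant, against 2.23, 1.93 and 2.36 in WT. For both loci, no library of any mutant reached a WT library. The log2 fold changes of AT3G21020 were -0.47 in ref6-3 (edgeR adjusted p = 0.054), -2.81 ± 0.30 in ref6C, -4.64 ± 0.34 in the double mutant and -3.26 ± 0.28 in the triple mutant.

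AT3G21000, a tested gene inside the array that is no transposable element gene, had log2 fold changes of -0.19, -0.70, -1.11 and -1.41 in ref6-3, ref6C, the double mutant and the triple mutant. The 7 anther and tapetum markers were A9, MS1, MS2, ABCG26, CYP703A2, DYT1 and AMS. All 7 were lower than WT in ref6C, the double mutant and the triple mutant, as the array was. In ref6-3 2 of the markers were lower and 2 higher. Their summed level was 993 to 1013 CPM in ref6-3, 643 to 664 in ref6C, 559 to 575 in the double mutant and 547 to 553 in the triple mutant, against 988 to 1025 in WT, and none of them was at 0. Their part in the result was not tested.

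Another group, of 5 members named here by AT1G35110, had mostly lower calls in ref6-3 and in both combined mutants. Of these 5, 4 were lower than WT in ref6-3, 4 in the double mutant and 3 in the triple mutant, each at least 2-fold, against 4.69%, 9.58% and 9.70% of all genes tested. The exception was SADHU2-1, which was higher in the double mutant by 0.26 ± 0.09 on the log2 scale (SE; edgeR adjusted p = 1.7e-02) and called in no other mutant; its call was lost without WT library 1 or 3 and without double mutant library 3. In ref6C none was lower and AT1G44875 was higher. That call of AT1G44875, at 0.81 ± 0.31 (SE; edgeR adjusted p = 4.5e-02), was lost with DESeq2, with all 15 libraries, and without any 1 of ref6C libraries 1 and 2, WT libraries 1 and 2 and triple mutant library 3. AT1G35110 had 0.561, 0.551 and 0.420 CPM in ref6-3, 1.53 and 1.72 in ref6C, 0.273, 0.409 and 0.370 in the double mutant, and 0.393, 0.440 and 0.281 in the triple mutant, against 1.52, 2.02 and 1.63 in WT. AT5G28970 had 0.224, 0.276 and 0.382 CPM in ref6-3, 1.26 and 1.08 in ref6C, 0.351, 0.149 and 0.309 in the double mutant, and 0.196, 0.330 and 0.281 in the triple mutant, against 1.72, 1.81 and 1.16 in WT. For both loci ref6C overlapped with WT and the other 3 mutants did not.

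The remaining members of that group were AT1G44875, AT3G42520 and SADHU2-1, which is linked by its overlap with AT1G35110. AT3G42520 averaged 0.682 CPM in ref6-3, 2.29 in ref6C, 0.472 in the double mutant and 0.919 in the triple mutant, against 2.22 in WT, and SADHU2-1 averaged 7.97, 8.41, 10.1 and 8.45 CPM in the same order, against 8.44 in WT. AT1G35110 and AT5G28970 matched best at 96.3% identity over 2765 bases. Their stretches below, of 150 bases from RefSeq TAIR10.1, come from chr1:12838442-12838591 on the minus strand and chr5:11002030-11002179 on the plus strand and show the 5 mismatches in capitals, and are shown for how few bases separate loci that fell in the same mutants.
AT1G35110: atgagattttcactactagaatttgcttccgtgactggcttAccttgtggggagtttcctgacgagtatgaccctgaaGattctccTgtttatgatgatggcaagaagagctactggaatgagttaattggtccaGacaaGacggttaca
AT5G28970: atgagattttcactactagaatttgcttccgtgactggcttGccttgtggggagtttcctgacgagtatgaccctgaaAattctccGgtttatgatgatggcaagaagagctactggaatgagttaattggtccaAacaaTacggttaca

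The mature pollen markers were VGD1, VGDH1, PPME1, STP9, STP11, BCP1, BUPS1, ANX1, AGP6 and AGP11. All 10 were lower than WT in ref6-3, the double mutant and the triple mutant, as most of the AT1G35110 group was. In ref6C no member of that group was lower, while 8 of these markers were. The median log2 fold change of the markers in ref6C was -0.32. Their summed level was 191 to 203 CPM in ref6-3, 548 to 564 in ref6C, 149 to 154 in the double mutant and 218 to 225 in the triple mutant, against 681 to 723 in WT. None was at 0 as a group mean, though STP11 and BCP1 were between 0.0254 and 0.169 CPM in the mutants. Their part in the result was not tested. The sperm markers MGH3, GEX2, DUO1 and HAP2 together had 3.34 to 3.97 CPM in ref6-3, 4.87 to 5.64 in ref6C, 2.81 to 3.28 in the double mutant and 3.26 to 3.78 in the triple mutant, against 5.85 to 7.54 in WT, and GEX2 was at 0 in ref6-3, ref6C and the double mutant.

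The group of 9 members named here by AT2G04670, of which 6 lie on chromosome 4, had more higher than lower calls in the combined mutants. In the double mutant 6 were higher and 1 lower than in WT (66.7% and 11.1%, against 33.7% and 34.7% of all genes tested), and in the triple mutant 4 and 1 (44.4% and 11.1%, against 32.0% and 34.3%). Of these 9 members, 4 would miss the limit without both combined mutants. AT4G16910 averaged 5.56 and 4.95 CPM in the double mutant and the triple mutant, against 3.10 in WT, and AT4G05585 averaged 0.508 and 0.692 CPM, against 0.0679. The lower member was AT2G04670 itself, with 0.604 and 0.669 CPM, against 1.41 in WT. It matched AT4G10580 at 95.4% identity over 4413 aligned bases and AT4G05585 at 94.1% over 4389, and reads of such copies can be shared between them. Over all 38 members on chromosome 4, 21 were higher and 7 lower in the double mutant than in WT (55.3% and 18.4%), and 20 and 7 in the triple mutant (52.6% and 18.4%). Of the 71 on chromosome 3, 18 were higher and 30 lower in the double mutant (25.4% and 42.3%), and 13 and 31 in the triple mutant (18.3% and 43.7%). The differences between chromosomes were not tested.

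By surroundings and by copy, the shares called stand beside those of all genes, which were 33.7% higher and 34.7% lower in the double mutant and 32.0% and 34.3% in the triple mutant. Of the 75 members in transposable element surroundings, 27 were higher and 18 lower than in WT in the double mutant (36.0% and 24.0%), and 22 and 24 in the triple mutant (29.3% and 32.0%). Of the other 195, 56 were higher and 75 lower in the double mutant (28.7% and 38.5%), and 49 and 70 in the triple mutant (25.1% and 35.9%). Of the 66 members with a near-identical copy, 24 were higher and 20 lower in the double mutant (36.4% and 30.3%), and 21 and 17 in the triple mutant (31.8% and 25.8%). Of the 204 without one, 59 were higher and 73 lower in the double mutant (28.9% and 35.8%), and 50 and 77 in the triple mutant (24.5% and 37.7%).

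**Figure D5:**
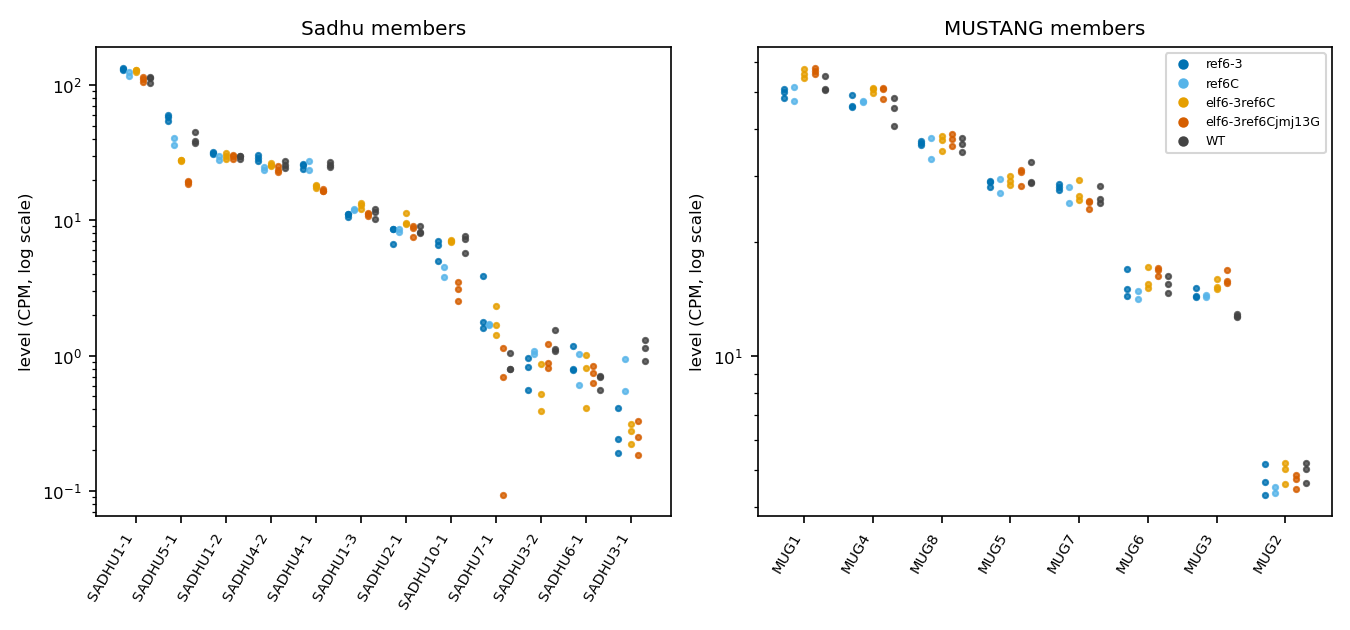
Level in CPM (log axis) in each library of the 12 Sadhu members and the 8 MUSTANG members, by genotype; ref6C library 3 is left out. SADHU5-1 steps down from ref6C to the double and the triple mutant, while no MUSTANG member changes 2-fold in any mutant.

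The aliases in the deposited table give the family of 20 other members. Sadhu elements are short retroposons that do not code for their own copying proteins, and 12 of them are members. In ref6-3, 4 were higher and 2 lower than in WT, in ref6C 1 and 1, in the double mutant 4 and 4, and in the triple mutant none was higher and 4 were lower. In the double mutant that is 33.3% each way, near the 33.7% and 34.7% of all genes tested. In the triple mutant it is 33.3% lower, near 34.3%, and none higher, against 32.0%. In ref6-3 33.3% were higher and 16.7% lower, against 16.1% and 18.3% of all genes. In ref6C 8.33% were called each way, against 15.7% and 18.4%. These differences were not tested. SADHU5-1 had 58.0, 54.1 and 59.9 CPM in ref6-3, 35.9 and 40.8 in ref6C, 27.7, 27.8 and 27.2 in the double mutant, and 19.3, 18.5 and 19.4 in the triple mutant, against 44.6, 38.5 and 37.1 in WT. Its ref6-3 libraries were above WT, those of ref6C overlapped with WT, and those of both combined mutants were below WT, the triple below the double.

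The log2 fold changes of SADHU5-1 were 0.51 ± 0.05 in ref6-3 (SE; edgeR adjusted p = 4.8e-09), -0.06 in ref6C, which was not called, -0.54 ± 0.06 in the double mutant (3.6e-09) and -1.07 ± 0.06 in the triple mutant (8.7e-15). SADHU4-1 had 18.3, 17.5 and 18.0 CPM in the double mutant and 16.4, 16.4 and 16.9 in the triple mutant, against 25.6, 24.7 and 26.9 in WT, and was called in neither single mutant. SADHU3-1 had log2 fold changes of -1.98 in ref6-3, -0.58 in ref6C, which was not called, -2.03 in the double mutant and -2.11 in the triple mutant. SADHU1-1 had 132, 128 and 133 CPM in ref6-3, 116 and 125 in ref6C, 128, 130 and 125 in the double mutant, and 110, 106 and 114 in the triple mutant, against 114, 112 and 103 in WT. Its call in ref6C was lost without ref6C library 2 or WT library 3.

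MUSTANG genes descend from transposases of Mutator-like elements and have become host genes that no longer move. All 8 of those in the members kept close to WT, as the plot of both families shows. In ref6-3 and in ref6C 1 was higher, in each combined mutant 3 were, none was lower in any mutant, and no change reached 2-fold. The 37.5% higher in each combined mutant lies near the 33.7% and 32.0% of all genes tested, and the 12.5% in each single mutant near 16.1% and 15.7%. MUG3, the one called in all 4 mutants, had log2 fold changes of 0.19, 0.18, 0.28 and 0.34, and its ref6C call was lost without either ref6C library, without WT library 2 or 3 and with DESeq2. MUG1 had 54.4, 55.8 and 57.3 CPM in the double mutant and 57.7, 56.7 and 55.8 CPM in the triple mutant, against 50.9, 55.1 and 50.7 CPM in WT. Its call in the double mutant was lost without WT library 1 or 3, without double mutant library 2 or 3 and with DESeq2, and its call in the triple mutant without WT library 3.

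Among the listed genes that silence transposable elements, DRM1 alone changed 2-fold or more. The counts of these lists stand beside 33.7% of all genes tested called higher and 34.7% lower in the double mutant, 32.0% and 34.3% in the triple mutant, 16.1% and 18.3% in ref6-3, and 15.7% and 18.4% in ref6C. Of 12 DNA methyltransferases and their helpers, 7 were higher and 4 lower than WT in the double mutant (58.3% and 33.3%), 6 and 4 in the triple mutant (50% and 33.3%), 3 and 1 in ref6-3, and 2 and 1 in ref6C. MET1, which copies CG methylation at replication, averaged 126 CPM in ref6-3, 124 in ref6C, 146 in the double mutant and 138 in the triple mutant, against 116 in WT. The remodeller DDM1, which gives methyltransferases access to heterochromatin, averaged 44.6, 43.0, 52.1 and 48.8 CPM in the same order, against 44.0 in WT. DRM1, a minor de novo methyltransferase, had log2 fold changes of -1.08 in ref6C, -0.85 in the double mutant and -1.53 in the triple mutant.

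Of 20 genes of RNA-directed DNA methylation, the pathway in which small RNAs guide methylation, 10 were higher and 3 lower in the double mutant (50% and 15%, against 33.7% and 34.7% of all genes), 9 and 4 in the triple mutant (45% and 20%, against 32.0% and 34.3%), 5 and 2 in ref6-3 (25% and 10%, against 16.1% and 18.3%), and 4 and 4 in ref6C (20% each, near 15.7% and 18.4%). The Argonaute AGO9 averaged 126 CPM in ref6-3, 146 in ref6C, 118 in the double mutant and 120 in the triple mutant, against 201 in WT. DCL3, which cuts the small RNA precursors, averaged 99.6, 83.6, 71.7 and 72.4 CPM in the same order, against 100 in WT. RDR2, which makes those precursors double-stranded, was higher by 0.47 in the double mutant and by 0.41 in the triple mutant on the log2 scale.

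Of 8 genes of post-transcriptional silencing, 3 were higher and 1 lower in each combined mutant (37.5% and 12.5%, with the share of higher ones near that of all genes), none was called in ref6-3, and 1 was higher and 1 lower in ref6C. AGO1, which cuts target RNAs guided by small RNAs, averaged 654 CPM in the double mutant and 671 in the triple mutant, against 461 in WT. Of 8 other repressors, 6 were higher in the double mutant (75%, against 33.7% of all genes) and 5 in the triple mutant (62.5%, against 32.0%), with none lower, and MORC1, an ATPase of heterochromatin silencing, had log2 fold changes of 0.32 and 0.35. Of 5 DNA and H3K9 demethylases, 1 was higher and 3 were lower in the double mutant (20% and 60%, against 33.7% and 34.7% of all genes), and 2 and 3 in the triple mutant (40% and 60%, against 32.0% and 34.3%). The DNA glycosylase DML3 had log2 fold changes of 0.18 in ref6-3, -0.48 in ref6C, -0.62 in the double mutant and -0.74 in the triple mutant.

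Of the 3 genes under the control of nearby repeats, QQS, an orphan gene that affects starch content, averaged 5.78 CPM in ref6-3, 63.7 in ref6C, 33.3 in the double mutant and 48.2 in the triple mutant, against 42.1 in WT. Its log2 fold changes were -2.86, 0.60, -0.34 and 0.20, and all were called. SDC was lower in the 3 mutants with ref6C, and FWA was called in none. Of 8 genes derived from transposases, 3 of them MUSTANG members, 5 were higher in each combined mutant (62.5%, against 33.7% and 32.0% of all genes) and 1 in each single mutant (12.5%, near 16.1% and 15.7%), with none lower. DAYSLEEPER, a host gene from a hAT transposase, averaged 158 CPM in each combined mutant, against 146 in WT.

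In ref6C library 3 some members also left the range of their group. AT2G07080 had 37.4 CPM there, against 1.43 and 1.35 CPM in ref6C libraries 1 and 2 and 1.08, 1.11 and 1.13 CPM in WT. AT4G04170 had 0.326 CPM there, against 0 and 0.0676 CPM in the other ref6C libraries. Neither was called in ref6C with this library left out.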

How the data were processed

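Total RNA from flower buds was sequenced as strand-marking TruSeq libraries, per the labels' protocols. The authors deposited whole-number counts and FPKM values for each gene and library, and for each mutant a log2 ratio of WT over mutant with its p-value, per the file headers. STAR, RSEM 1.2.22 and DESeq2, with the build TAIR10, are listed in the submitters' processing notes; their settings, the handling of multiply mapped reads and the use of strand are not given in the sources used here, and whether the counts are rounded estimates is not given either.

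From the counts, genes with at least 100 over 14 libraries (22233) entered edgeR 4.0.16 under R 4.3.3: TMM factors, 5 genotypes in 1 quasi-likelihood fit, no block, Benjamini-Hochberg adjustment over all genes, and a call at adjusted p below 0.05. The biological coefficient of variation was 2.50%. CPM values use the TMM factors. DESeq2 1.42.0, other filters, factors and limits, and fits without each library were alternatives. The test was checked on simulated counts. Counting intervals (95%) and floors of 3 counts over a group cover counting error only. Loci were placed by locus tag on RefSeq TAIR10.1, since the table holds no coordinates; copies and sequence groups came from blastn 2.17.0. No column of the table lacked a sample.

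Members, gene lists and tests were chosen with earlier results of these data known. Members are named if among the 8 with the highest mean CPM or FPKM, the 6 largest called changes each way against WT (4 in other comparisons) without overlap of libraries, those with no count in a group, those next to the limit, the 5 with the highest ratio in ref6C library 3, or the smallest p per family; others are described in their sequence group or family. Of the listed silencing genes up to 3 per list were named for their p, and the others for their role. ref6C library 3 was left out of all fits but 1.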

Additional observations from a re-analysis of the deposited data

Results flagged for a closer look

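Library 3 of ref6C carried signal in transposable element genes that no comparison uses. Genes of the class that are not members held 16721 counts in it, against 848 to 1702 in the other 14 libraries, and 3164 genes of the class had a count there, against 624 to 1041. Both were noted because the values lie outside the data compared and above the WT libraries. As a share of all counts, those outside the members made up 0.0607% in this library, against 0.00319% to 0.00540% in the others. Among members the chi-square per degree of freedom between this library and its replicates was 6.22 and 6.27, against 2.07 between the other pair of ref6C libraries, while over all genes it was 2.25 and 1.96, against 2.26.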

How the results depend on the processing

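Counts of members called against WT in elf6-3ref6C and elf6-3ref6Cjmj13G, at any size, stayed within 1.5 times the reported ones under every alternative except other limits on member counts. No named value changed direction once called. With DESeq2, ref6-3 had 16 higher members and 3 of them at 2-fold; ref6C had 18 higher and 29 lower; ref6C against ref6-3 had 5 lower at 2-fold; elf6-3ref6Cjmj13G against elf6-3ref6C had 4 higher, 17 lower, and 1 and 3 at 2-fold. With all 15 libraries, ref6C had 51 higher, 22 at 2-fold, and against ref6-3 61 higher and 5 lower at 2-fold. The next values are at 2-fold (higher, lower) unless said. With members at 30 counts: ref6-3 14 and 41, elf6-3ref6C 77 higher, elf6-3ref6Cjmj13G 67 higher (109 at any size), ref6C against ref6-3 15 lower, elf6-3ref6C against ref6C 70 and 44 (100 higher at any size). With members at 300 counts: ref6-3 11 lower, ref6C 6 and 7, elf6-3ref6C 19 and 25, elf6-3ref6Cjmj13G 12 and 29 (47 higher at any size), ref6C against ref6-3 11 and 2 (26 higher at any size), elf6-3ref6C against ref6C 17 and 11, and the triple against the double 1 and 4. With 1 CPM in 2 libraries: 14 lower, 7 and 8, 28 lower, 19 and 33, 14 and 2, 23 and 14, and 1 and 5, in the same order of comparisons, from ref6-3 to the triple against the double. Without members that have a near-identical copy, chosen after seeing the data: ref6-3 3 and 14, ref6C 7 higher, elf6-3ref6C 22 higher, elf6-3ref6Cjmj13G 17 higher, ref6C against ref6-3 14 higher (25 at any size), elf6-3ref6C against ref6C 17 and 18, the triple against the double 1 and 6. The last 3 alternatives test fewer members and the limit of 30 counts tests more; otherwise the cause was not tested. With edgeR's own filter, with only the compared groups, and with 30 counts, the triple had 1 member higher than the double at 2-fold. Leaving out 1 library gave 18 to 30 higher members in ref6C and, for the triple against the double, 4 to 10 higher, 22 to 43 lower, and 1 to 4 and 4 to 10 at 2-fold. The summed level in elf6-3ref6C was 2523 CPM with total counts alone.

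Same-numbered libraries did not deviate together: the correlations of 26 pairs lay between -0.13 and 0.11. With the replicate number as a block, ref6-3 had 24 members higher and 44 lower than WT, ref6C 29 and 44, elf6-3ref6C 83 and 91, and elf6-3ref6Cjmj13G 72 and 94, and the triple had 1 member higher than the double at 2-fold.

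Depth limits the 114 members under 1 CPM: a genotype with 3 counts or fewer gives only a bound or a wide interval, and the 66 members with a near-identical copy can share reads with it.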
